A study of Arabidopsis thaliana and Arabidopsis lyrata subsp. lyrata with 12 samples.

Results

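Of the 32793 genes in the deposited *A. lyrata* table, 7871 carry no *A. thaliana* orthologue and no transposable element (TE) note in the annotation of the genome, and they are the genes described here. They were selected by annotation only, without any measured value. A further 20722 genes have an orthologue and no TE note and served for comparison, and 4200 genes carry a TE note. Of the 7871 genes, 6729 are protein-coding models, 312 are noncoding transcript models built from RNA reads, 170 are miRNA genes and 660 are tRNA genes. The annotation links none of its 355 transcript models, 170 miRNA genes and 660 tRNA genes to an *A. thaliana* gene, so that for these classes a missing orthologue does not tell whether *A. thaliana* has the gene.

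Rosette leaves of *A. lyrata* MN47 plants, grown on soil for 3 weeks to about the 5-leaf stage at 21 °C in 16 h of light, were RNA-sequenced in 3 conditions. HS plants spent 6 h at 37 °C, recovered plants had the same HS followed by 48 h back at 21 °C, and control plants stayed at 21 °C. Each condition had 2 libraries, and the libraries of *A. thaliana* Col-0 made in parallel were not used, as the annotation links these genes to no gene there. The controls were collected directly after the stress and served both comparisons, so recovery and 48 h of growth cannot be told apart. No source states whether replicate libraries came from separate sets of plants, so p-values measure the spread between 2 libraries, which may be technical.

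An orthologue is the gene of another species that descends from the same gene of the common ancestor. A gene without one can have arisen in its own lineage, by duplication or from noncoding sequence, or have been lost or have diverged beyond recognition in the other species, or be an error of the gene model. In plants, genes without recognisable relatives are known to be short, weakly expressed and often responsive to stress. Heat acts on plant transcription mainly through heat shock factors, which bind short repeated motifs in front of chaperone genes and of some long terminal repeat retrotransposons. As the files do not name or describe these genes, each is given by position on the *A. lyrata* scaffolds, by structure and by its neighbours, with few gene IDs, and no function is assigned.

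Counted reads ran from 8246880 to 26046839 per library. The *A. lyrata* orthologues of 6 heat genes (HSFA2, HSP18.2, HSP101, HSP17.6II, HSP70 and HSP90.1) had log2 fold changes of 5.83 to 10.71 after HS and all passed the test. Of the leaf markers, 4 of 5 had an orthologue, with a summed level of 21301 and 25316 CPM (read counts scaled to library size) after HS, of 33354 and 35391 CPM in recovery and of 34221 and 34759 CPM in control. The 4 root markers found summed to 0.0933 to 2.99 CPM and the 5 flower markers to 3.01 to 6.69 CPM, with the highest sums of both after HS. The root sum after HS was that of WOX5 alone (2.098 and 2.99 CPM), as the other 3 root markers had no read in either HS library. Control replicate 2 stood apart at the lowest counts, since 21.4% of the genes without an orthologue had 1 to 3 reads there, against 8.63 to 9.96% in the other 5 libraries. Recovery replicate 2 stood apart at a few loci given further on and also in the make-up of its reads. Genes with a TE note took 7.13% of its counted reads, against 4.34 to 4.93% in the other 5 libraries. Genes with an orthologue took 84.3%, against 85.4 to 87.4%.

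The protein-coding models without an orthologue were shorter than genes with one. Their coding length had a median of 603 bp (quartiles 315 and 1122 bp), against 1107 bp (693 and 1629 bp) for genes with an orthologue, and 23.5% of them coded for 300 bp or less, against 4.37%. They had a median of 3 exons, against 4, and 22.5% had a single exon, against 17.1%. The noncoding transcript models had a median exon length of 576 bp and the miRNA genes one of 161 bp. Overlap with another annotated gene was seen in 4.15% of the coding models, 1.60% of the transcript models, 38.8% of the miRNA genes and 23.6% of the tRNA genes, against 1.32% of the genes with an orthologue. As the libraries carry no strand information, reads in such overlaps cannot be told apart by strand.

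Genes without an orthologue made up 19.9 to 24.8% of the genes on each of the 8 chromosome-scale scaffolds, lowest on scaffold 6 and highest on scaffold 2. On the 412 smaller scaffolds that hold genes, they were 805 of 1065 genes (75.6%). Still, 89.8% of them lay on the 8 large scaffolds, against 99.1% of the genes with an orthologue. In the order of genes along the scaffolds, 3544 (45.0%) stood alone among other genes and 4327 stood in runs of at least 2. The longest run had 37 genes on scaffold 1 between 32825184 and 32845911, of which 36 are tRNA genes, and none of the 37 had enough reads to be tested.

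At least 1 read in any of the 6 libraries was found for 5901 of the 7871 genes (74.97%), against 95.3% of genes with an orthologue. The classes differed widely: 84.3% of the protein-coding models, 58.3% of the transcript models, 27.1% of the miRNA genes and 0.455% of the tRNA genes had a read. The detected share rested in part on control replicate 2, which alone gave reads for 1073 of the genes (median 1 read, at most 75). Without this library, 61.3% of the genes without an orthologue were detected, against 90.4% of those with one. At least 10 reads in every library were found for 2215 genes (28.1%), against 68.0% of the genes with an orthologue.

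**Figure D1:**
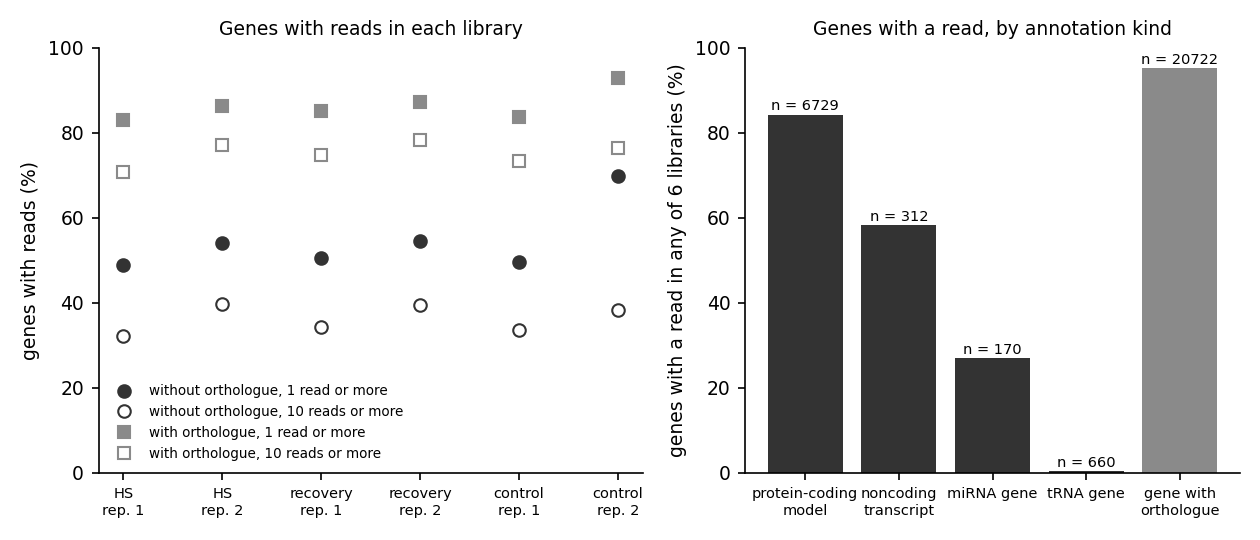
Left, the share of genes with at least 1 read (filled) or 10 reads (open) in each of the 6 libraries, for genes without (circles) and with an orthologue (squares). Control replicate 2 is highest at 1 read (69.7% of the genes without an orthologue) but not at 10 reads (38.4%, against 39.7% in HS replicate 2). Right, the share with a read in any library for the 4 annotation kinds without an orthologue and for genes with one, where tRNA genes are nearly at 0.

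The tRNA genes yielded 14 reads in all libraries together, in 3 of 660 genes. Both tRNA-Trp genes with reads (anticodon CCA, scaffold 2, starts 8769829 and 9167563) had 1 and 2 reads after HS, none in recovery, and 0 and 3 reads in control. A tRNA-Tyr gene on scaffold 7 (anticodon GTA, start 447086) had 0 and 2 reads after HS and none elsewhere. These counts allow no comparison of conditions.

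Levels were compared between genes per length, as CPM divided by exon length in kilobases (RPKM). Over the 5901 genes with a read, the median level lay between 0.544 and 0.734 RPKM in the 6 libraries, against 5.96 to 6.06 RPKM for the genes with an orthologue. Genes with a TE note were lower still, at 0.119 to 0.307 RPKM. Reads in control replicate 2 only were found for 1073 of the 5901 genes and 1013 of 19739 with an orthologue. These genes count as 0 in every other library. Among genes with enough reads for a test, the medians were 4.35 to 4.90 RPKM without an orthologue and 8.86 to 9.47 RPKM with one. Most tested genes without an orthologue were low: 1634 of 3047 (53.6%) had a mean of 1 to 10 CPM and 128 (4.201%) had 100 CPM or more, against 33.1% and 8.12% of the genes with an orthologue.

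A few of the genes were very highly transcribed without stress. The highest was AL7G50640 on scaffold 7 (24001276 to 24002324), a single-exon gene with 588 bp of coding sequence. It had 10355 and 12626 RPKM after HS, 9597 and 11117 RPKM in recovery and 9556 and 10404 RPKM in control, and neither comparison passed the test (adjusted p = 0.079 and 0.80, edgeR). The HS difference of 0.20 on the log2 scale passed in 5 of the alternatives. It was -0.03 with library totals, 0.35 without HS replicate 1 and 0.07 without HS replicate 2. AL7G50640 lies 2446 bp from the orthologue of *RBCS1B*, which encodes a small subunit of Rubisco, the enzyme that fixes CO2. On the other side of that orthologue, 2456 bp away, the gene with the third highest level (scaffold 7, 23994416 to 23995370) has a coding length of 546 bp, the same as the *RBCS1B* orthologue itself. It had 1218 and 1269 RPKM after HS, 1960 and 1969 RPKM in recovery and 1375 and 2287 RPKM in control, so that the HS libraries were the lowest (log2 fold change -0.56 ± 0.16 SE, adjusted p = 0.0037). That call was lost without control replicate 2 (-0.15, adjusted p = 0.33) and in DESeq2 (-0.53, adjusted p = 0.10). The *RBCS1B* orthologue itself was also lower after HS (-0.48 ± 0.09, adjusted p = 1.8e-04). The sequences of these genes were not compared. How reads that match more than 1 gene were counted is not stated, so the split of reads in this cluster is uncertain.

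The second highest gene (scaffold 6, 11798246 to 11799516, 735 bp coding) lies 6600 bp from the orthologue of *TGG1*, a myrosinase that cleaves glucosinolates, and overlaps another annotated gene. It had 2563 and 2664 RPKM after HS, 1316 and 1359 RPKM in recovery and 2097 and 1968 RPKM in control. It rose after HS (0.36 ± 0.09 on the log2 scale, adjusted p = 0.0018, but 0.14 with adjusted p = 0.15 when scaled by library totals) and fell in recovery (-0.60 ± 0.09, adjusted p = 3.1e-04). The next in order, both on scaffold 8, fell after HS. The gene at 3512661 to 3514905 had 410 and 455 RPKM after HS, 952 and 949 RPKM in recovery and 1029 and 979 RPKM in control (HS -1.21 ± 0.10, adjusted p = 3.5e-09). The gene at 19520021 to 19522401 had 298 and 355 RPKM after HS, 934 and 965 RPKM in recovery and 856 and 796 RPKM in control (HS -1.34 ± 0.11, adjusted p = 2.7e-09).

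Reads from genes without an orthologue took a larger share of the HS libraries than of the others. The share was 10.2 and 10.0% of all counted reads after HS, 7.95 and 8.54% in recovery and 7.82 and 7.93% in control. Both HS libraries lay above all the others, and the lower recovery library lay just above the higher control. The exact two-sided permutation test gave p = 0.333 for HS against control and for recovery against control, the smallest p that 2 against 2 libraries allow. A single gene, AL1G46520, took 1.67 and 1.29% of all reads after HS, at most 0.00167% in recovery and at most 0.000993% in control. Without it the share was 8.54 and 8.75% after HS, 7.94 and 8.54% in recovery and 7.82 and 7.93% in control, so that both HS libraries stayed above the controls but no longer lay apart from recovery replicate 2. Without 3 genes that were high in recovery replicate 2, the share was 7.85 and 7.71% in recovery, against 7.70 and 7.84% in control, and these groups overlapped (exact permutation p = 0.667).

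**Figure D2:**
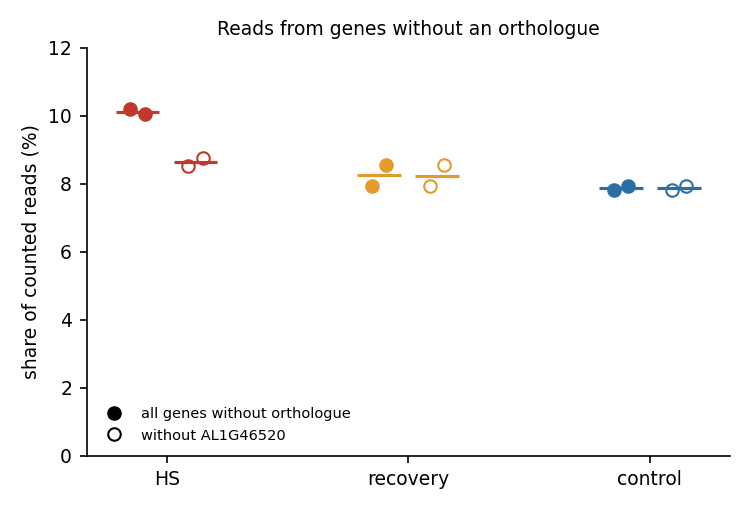
Share of all counted reads (%) that fell in genes without an orthologue, for each of 2 libraries per condition (points) with their mean (line). With all 7871 genes (filled) the HS libraries lie at 10.2 and 10.0%, and without AL1G46520 (open) at 8.54 and 8.75%, above both controls but overlapping with recovery (7.94 and 8.54%).

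For the comparison of conditions, 3047 of the 7871 genes (38.7%) passed the filter on low counts, against 77.4% of the genes with an orthologue. The 3047 genes comprised 2984 protein-coding models, 58 transcript models and 5 miRNA genes. A gene without reads in control passed only through its reads after HS or in recovery, so these counts do not describe all 7871.

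After HS, 1072 of the 3047 genes were higher and 1072 lower at an adjusted p under 0.05 (35.2% each). Over all 20779 genes tested, 37.9% were higher and 38.7% lower, and among genes with an orthologue 38.8 and 39.2%. The median log2 fold change was -0.02 in the genes without an orthologue, -0.01 in genes with one and -0.01 in all genes. Increases and decreases were equal in number in the genes without an orthologue, and both shares were below, but near, those of the whole table. Replicates of these genes differed more, among genes with 50 reads or more. The SD of the log2 ratio between replicates was 0.254 against 0.193 with an orthologue in HS, 0.259 against 0.168 in recovery and 0.204 against 0.179 in control. Whether read depth and this spread lowered the shares was not tested. In data simulated for the HS comparison over 20486 genes, the fit called 68% of 2-fold and 100% of 4-fold increases. It called 63.3% of 2-fold and 97.9% of 4-fold decreases. The simulation changed only a small set of genes without an orthologue and left all others unchanged, so these rates need not hold in the data. Leaving out 1 library at a time gave 943 to 1107 higher and 898 to 1112 lower genes.

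Calls were also counted by class of mean level over all 6 libraries. As the HS libraries enter this mean, a gene that rose after HS was placed in a higher class by the rise itself, so that no relation between level and response is read from the classes. Below a mean of 1 CPM, 27.0% of 296 genes without an orthologue were higher after HS, against 28.7% of 520 genes with one. From 1 to 10 CPM, the class with most of the tested genes without an orthologue, the shares were 32.1% of 1634 and 32.9% of 5308. From 10 to 100 CPM the shares were 41.5% of 989 and 42.9% of 8903. Lower after HS in these classes, in order of level, were 32.1, 33.3 and 38.7% without an orthologue, against 35.6, 37.2 and 39.1% with one. At 100 CPM or more the order was different, with 45.3% of 128 genes without an orthologue higher and 39.1% lower, against 38.6% higher and 48.9% lower of the 1302 genes with one. Differences between the sets within a class of level were not tested.

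**Figure D3:**
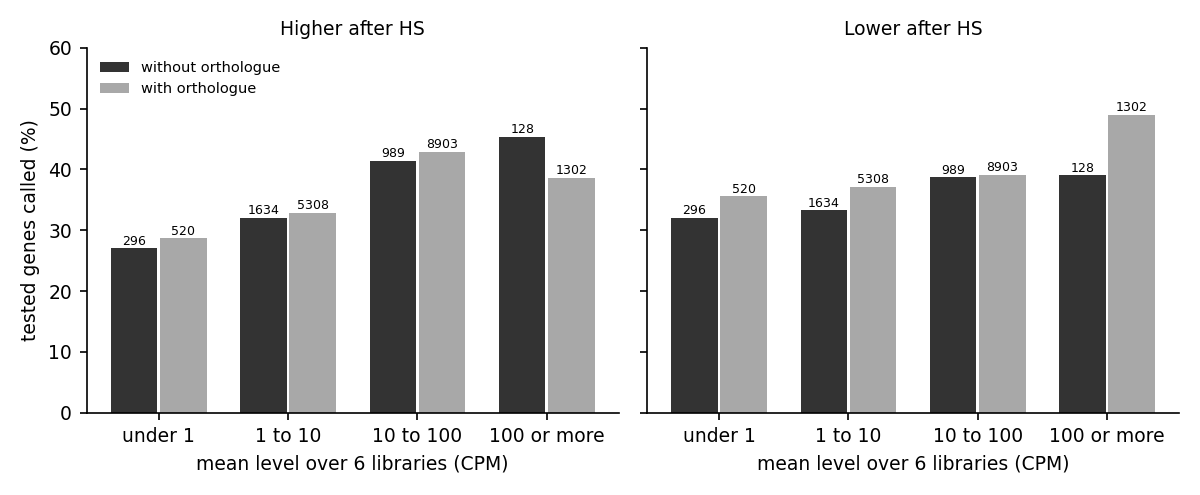
Share of tested genes higher (left) or lower (right) after HS at an adjusted p under 0.05, by mean level over the 6 libraries in CPM, for genes without (dark) and with an orthologue (light). Numbers on the bars count the genes tested, and the largest gap is in the class of 100 CPM or more on the right (39.1 and 48.9%).

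Large increases were seen in a larger share of the tested genes without an orthologue than of those with one. Of the 3047 genes, 182 (5.97%) rose by more than 3 on the log2 scale, which is over 8-fold, against 3.19% of the genes with an orthologue and 3.69% of all genes. Decreases of that size were seen in 120 genes (3.94%), against 3.03% with an orthologue and 3.35% of all genes. The share with a large increase was 12.2%, against 12.5% with an orthologue, below a mean of 1 CPM in the same classes, and 5.94%, against 3.79%, from 1 to 10 CPM. From 10 to 100 CPM it was 3.74%, against 1.91%, and at 100 CPM or more 9.38%, against 5.84%. Single-exon coding models had such increases in 9.83% of 519 genes, and models with 2 or more exons in 4.79% of 2465. Decreases of that size were also more frequent in the single-exon models, at 6.36% against 3.33%. Genes with an orthologue were not split by exons. None of these differences between sets of genes was tested. A gene at or near 0 in control passed the filter on low counts only through its reads after HS or in recovery. This can raise the share of large increases. Below a mean of 1 CPM lay 9.71% of the tested genes without an orthologue and 3.24% of those with one. Among genes with at least 10 reads in every library, 2.302% had a large increase, against 1.70% with an orthologue. That filter removes every gene with fewer than 10 reads in any library.

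**Figure D4:**
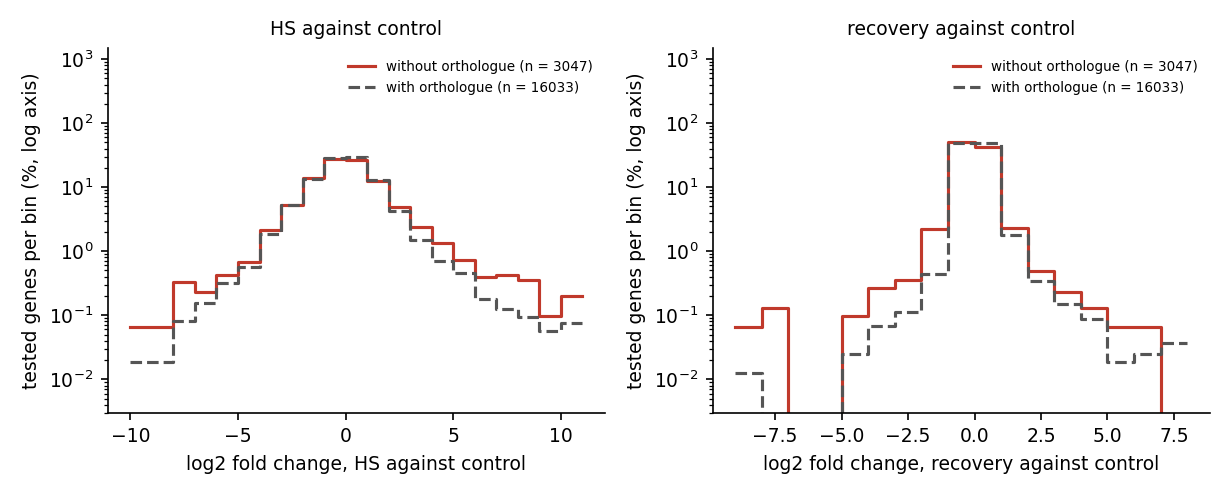
Share of tested genes per log2 fold change bin of width 1 (log axis) for HS (left) and recovery (right) against control, in genes without an orthologue (solid, n = 3047) and with one (dashed, n = 16033). The lines coincide near 0 and part at large changes, where 5.97% of the genes without an orthologue and 3.19% of those with one rose by more than 3 on the log2 scale after HS. Genes at or near 0 in control entered only through their HS or recovery reads, which can raise the share of large increases.

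Where the 6 libraries averaged 5 CPM or more, the largest increase after HS was that of AL1G46520 (scaffold 1, 15435103 to 15435967), a single-exon gene with 576 bp of coding sequence. It had 137690 and 335472 reads after HS, 90 and 359 in recovery and 87 and 130 in control, or 18057 and 14540 CPM after HS against 8.92 and 9.33 CPM in control. Its log2 fold change was 10.80 ± 0.26 (SE, adjusted p = 4.4e-16), and recovery did not pass the test (0.48 ± 0.21, adjusted p = 0.14). It passed without recovery replicate 1 (0.85, adjusted p = 0.016) and with no filter on low counts (0.50, adjusted p = 2.0e-04). The gene sits 16 bp from the orthologue of AT1G33350 and 402 bp from that of AT1G33340. Those neighbours had 26 and 36 reads and 33 and 137 reads after HS, so the increase was not seen in the genes on either side.

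Similar increases were found in 3 short genes with 459 to 474 bp of coding sequence. AL5G24280 (scaffold 5, 12524929 to 12525696, 1 exon) had 2001 and 1817 CPM after HS, 1.96 and 2.38 CPM in recovery and 1.33 and 1.36 CPM in control (10.46 ± 0.17, adjusted p = 1.8e-17). A gene on the same strand of the same stretch (12501597 to 12502636) had 305 and 328 CPM after HS, 0.0933 and 0.503 CPM in recovery and 0.205 and 0.287 CPM in control (10.24 ± 0.19, adjusted p = 2.7e-17). The stretch between the flanking genes with orthologues, *AT3G46240* and *AT2G13272*, holds 6 genes without an orthologue, and the other 4 had at most 4 reads in any library. On scaffold 4 (4777053 to 4777719, 1 exon), the third gene had 486 and 478 CPM after HS, 0.373 and 0.732 CPM in recovery and 0.308 and 0.431 CPM in control (10.28 ± 0.17, adjusted p = 1.8e-17). In all 3 genes both HS libraries also lay far above both recovery libraries, whereas the separation from control was required by the choice.

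Some genes had no read at all in control. Of the 2311 genes with 0 reads in both controls, 89 had reads in both HS libraries and 13 had at least 10 in each. The following 3 genes were chosen for having no control read and the most HS reads, so their increase after HS was set by the choice. A gene on scaffold 1 (25450367 to 25452728, 9 exons, 1350 bp coding) had 140 and 308 reads after HS, 0 and 1 in recovery and none in control, at least 115-fold higher after HS when set against 3 reads over the control group. On scaffold 8 (3215388 to 3217098, 237 bp coding), a gene had 35 and 142 reads after HS and 10 and 21 in recovery. It was at least 45.5-fold higher after HS and at least 7.51-fold higher in recovery. The gene on small scaffold 811 (101 to 1961, 1035 bp coding) had 27 and 100 reads after HS and 9 and 25 in recovery, at least 32.7-fold and 8.24-fold higher. Both of the last 2 genes thus had reads in both recovery libraries and in no control. Conversely, 15 genes with at least 10 reads in each control had none after HS. Among tested genes, 14 of 3047 without an orthologue had no control read but more than 3 after HS. With an orthologue, these were 22 of 16033. More than 3 control reads but none after HS were seen in 19 tested genes without an orthologue and 22 with one. Differences between these shares were not tested.

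Where the 6 libraries averaged 5 CPM or more, the 6 that fell furthest after HS were chosen with both HS libraries below both controls. In recovery they lay closer to control or above it. AL7G16920 (scaffold 7, 2907890 to 2909230, 270 bp coding) had 0 and 0.217 CPM after HS, 9.80 and 7.32 CPM in recovery and 8.204 and 8.11 CPM in control (HS -5.58 ± 0.39, adjusted p = 4.9e-10). AL4G43920 (scaffold 4, 22535149 to 22536755, 900 bp coding) had 0.787 and 0.433 CPM after HS, 45.3 and 45.5 CPM in recovery and 22.9 and 25.1 CPM in control. It fell after HS (-5.50 ± 0.20, adjusted p = 9.4e-14) and was higher than control in recovery (0.91 ± 0.10, adjusted p = 6.5e-06). The most abundant was a single-exon gene on scaffold 5 (3991528 to 3992002, 183 bp coding) that lies 467 bp from the orthologue of *RST1* and 9396 bp from that of *LHCB2.3*, a light-harvesting antenna gene. It had 5.64 and 7.11 CPM after HS, 220 and 248 CPM in recovery and 290 and 283 CPM in control (HS -5.43 ± 0.12, adjusted p = 1.5e-16). Its lower level in recovery (-0.29 ± 0.09, adjusted p = 0.038) was lost when any single control or recovery library was left out (adjusted p = 0.0846 to 0.366), and in DESeq2 (adjusted p = 0.0552).

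The other 3 of the 6 largest decreases ranged from -4.60 to -5.34 on the log2 scale. The gene at 17636747 to 17638818 on scaffold 5 (1383 bp coding) had 0.393 and 0.347 CPM after HS, 13.4 and 13.3 CPM in recovery and 14.4 and 15.3 CPM in control. The gene at 12580175 to 12580736 on scaffold 5 (312 bp coding) had 0.656 and 0.824 CPM after HS, 25.4 and 26.6 CPM in recovery and 26.6 and 21.5 CPM in control. In both, recovery did not pass the test (adjusted p = 0.47 and 0.51). The gene at 21792744 to 21793633 on scaffold 4 (213 bp coding), 4491 bp from the orthologue of the transcription factor gene *WRKY12*, had 0.525 and 0.693 CPM after HS, 7.93 and 8.64 CPM in recovery and 15.1 and 16.8 CPM in control. It was the only one of these 3 that was still lower in recovery (-0.94 ± 0.14, adjusted p = 2.2e-04).

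**Figure D5:**
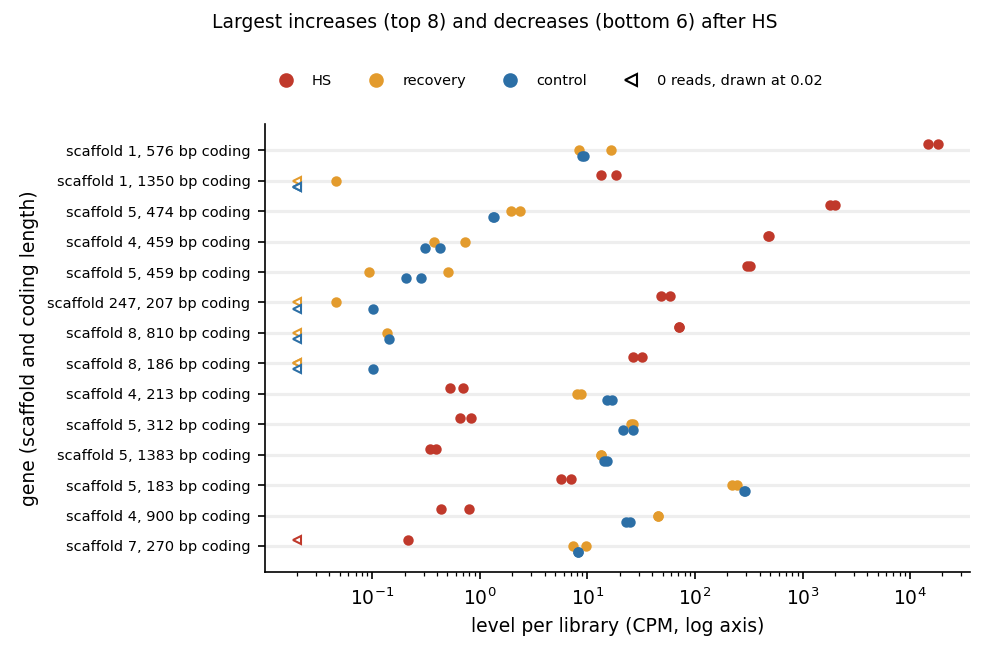
Level in CPM (log axis) in each library of HS (red), recovery (orange) and control (blue) plants, for the 8 largest increases and 6 largest decreases after HS among genes without an orthologue that averaged 5 CPM or more, each labelled by scaffold and coding length. Libraries with 0 reads are drawn as open triangles at 0.02. HS points lie to the right of control in the upper 8 genes, up to 18057 against 9.33 CPM, and to the left in the lower 6. The choice required HS and control libraries that do not overlap, so this separation is set by the choice. The mean of 5 CPM includes the HS libraries, so a gene low in control could pass through its HS level.

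Several of the strongest increases lay at copies of retrotransposons. The study lists 350 positions of *A. lyrata* TEs that changed in the same libraries, so an overlap with them is no independent evidence of a response. Of the 7871 genes, 53 overlapped such a position by at least 1 bp, 45 of these were tested, and 28 were higher and 16 lower after HS, with a median log2 fold change of 1.34. These are 62.2 and 35.6% of the 45 genes, beside 37.9 and 38.7% of all genes tested. Within 2 kb of listed copies of the *COPIA* families *ONSEN*, *TERESTRA* and *COPIA37*, chosen after the values were seen, lay 24 genes. As these copies were listed for a change in the same libraries, an increase of genes near them is no independent evidence either. Of the 20 tested, 18 were higher and none lower (90 and 0%, beside 37.9 and 38.7% of all genes tested). The median was 6.91 in 8 genes at *ONSEN*, 7.74 in 5 at *TERESTRA* and 2.50 in 7 at *COPIA37*, where 2 did not pass the test.

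At *ONSEN*, a gene on small scaffold 247 (8536 to 9727, 207 bp coding) that overlaps the copy by 119 bp had 444 and 1106 reads after HS, 0 and 1 in recovery and 1 and 0 in control. The ratio of HS to control reads, per scaled library, was 1196 (95% counting interval 214 to 47266). A gene on scaffold 8 (15965133 to 15966448, 810 bp coding) overlapping another copy by 123 bp had 545 and 1634 reads after HS, 0 and 3 in recovery and 0 and 2 in control, a ratio of 841 (232 to 6946). On scaffold 3 (14349128 to 14350720, 1011 bp coding), an overlap of 26 bp went with 126 and 343 reads after HS, 1 and 0 in recovery and 0 and 1 in control, a ratio of 362 (64.6 to 14323). All 3 overlap the element by a short stretch only and were nearly silent outside HS.

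At *TERESTRA*, the 9-exon gene on scaffold 1 without any control read starts 432 bp from a copy. On scaffold 8, a gene 351 bp from a copy (6163946 to 6166396, 186 bp coding), which also overlaps a listed *MU9* element by 472 bp, had 246 and 607 reads after HS, none in recovery and 1 and 0 in control, a ratio of 658 (118 to 26025). The adjoining gene (6159346 to 6163717), chosen after its values were seen, lies over 2544 bp of that copy and had 153 and 458 reads after HS, none in recovery and 0 and 2 in control, a ratio of 236 (65.0 to 1951). A further gene chosen in that way, on scaffold 4 (15131200 to 15139231), overlaps a copy by 2501 bp and had 217 and 670 reads after HS, 0 and 1 in recovery and 0 and 8 in control (6.38 ± 0.30, adjusted p = 2.4e-12). Reads from the element itself are counted in such genes where the models overlap.

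Not all genes at listed TEs rose. A single-exon gene on scaffold 6 (6182430 to 6183774, 951 bp coding) shares 840 bp with a *Copia23* element. It had no read after HS, 28 and 54 in recovery and 31 and 38 in control, at least 29.8-fold lower after HS against 3 reads over the HS group.

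Of the 312 noncoding transcript models, 58 (18.6%) passed the filter on low counts. Of these 58, 26 were higher and 14 lower after HS, and 10 rose by more than 3 on the log2 scale. The shares of 44.8, 24.1 and 17.2% stand beside 37.9, 38.7 and 3.69% of all genes tested. Models with no control read passed only through their reads after HS or in recovery, which can raise the share of increases. These shares thus do not describe all 312 models. The following 4 were chosen after their values were seen. A model on scaffold 8 (17575765 to 17576807), which lies 280 bp from the orthologue of *Cpn60beta3*, a chloroplast chaperonin subunit gene, had 20 and 55 reads after HS and none in any other library, at least 19.3-fold higher after HS than in control. A 3162 bp model on scaffold 2 (16178339 to 16181500) had 114 and 257 reads after HS, 2 and 1 in recovery and 2 and 4 in control (5.59 ± 0.35, adjusted p = 9.8e-11). The model on small scaffold 71 (12767 to 13923) went the other way, with 0 and 3 reads after HS, 55 and 113 in recovery and 40 and 57 in control. On scaffold 4 (15515980 to 15517572), a model had 1 and 2 reads after HS, none in recovery and 25 in each control, at least 22.9-fold lower in recovery against 3 reads over the recovery group.

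Mature miRNAs are cut from longer primary transcripts and are too short for this kind of library, so that reads in miRNA genes stem from the longer transcripts. Only 46 of the 170 miRNA genes had a read and 5 were tested, none of which overlaps another gene. A gene on scaffold 7 (18203535 to 18203722) had 23 and 35 reads after HS, 0 and 1 in recovery and none in control (adjusted p = 7.6e-06). One on scaffold 3 (10278871 to 10279008) had 13 and 42 reads after HS, 0 and 3 in recovery and none in control (adjusted p = 4.3e-06). On scaffold 4 (3693766 to 3693949) the reads were 15 and 58 after HS, 2 and 1 in recovery and 1 and 2 in control (adjusted p = 2.2e-06). These 3 genes were at or near 0 outside HS. They passed the filter on low counts only through their HS reads, so no change other than an increase could be seen in them. On scaffold 5 (3130574 to 3130783), 11 and 38 reads after HS stood against 4 and 7 in recovery and 5 and 8 in control (1.52 ± 0.40, adjusted p = 0.0025). The only decrease was on scaffold 3 (7799851 to 7800143), with 0 and 4 reads after HS, 10 and 15 in recovery and 12 and 19 in control (-3.25 ± 0.61, adjusted p = 1.1e-04). None of the 5 passed the test in recovery.

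After recovery, 197 of the 3047 genes were higher and 147 lower than in control (6.47 and 4.82%). Over all genes tested, 7.65% were higher and 4.73% lower, and among genes with an orthologue 8.07 and 4.53%. The counts depended on single libraries: without 1 library they were 77 to 220 higher and 43 to 190 lower. Without recovery replicate 2 they were lowest, at 77 and 43. Without control replicate 2 they were 86 and 54, without recovery replicate 1 130 and 78, and without control replicate 1 123 were higher. By DESeq2, 92 were higher and 41 lower.

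At an average of 5 CPM or more, the largest increase in recovery was that of AL302U10030 on small scaffold 302 (6596 to 10227, 10 exons, 1137 bp coding). It had 15.6 and 14.2 CPM after HS, 44.6 and 43.9 CPM in recovery and 0.410 and 1.00 CPM in control (recovery 5.85 ± 0.19, adjusted p = 2.0e-12, HS 4.26 ± 0.23, adjusted p = 1.4e-11). Of the 5 genes with the largest increases in recovery at that level, it alone had both recovery libraries well above both HS libraries. AL4G26470 (scaffold 4, 15227630 to 15228528, 216 bp coding) had 81.6 and 108 CPM after HS, 10.4 and 14.6 CPM in recovery and 1.44 and 0.933 CPM in control (recovery 3.49 ± 0.29, adjusted p = 3.0e-07). A single-exon gene on scaffold 3 (20721605 to 20722069, 351 bp coding) lay in recovery within the range of the HS libraries, with 9.05 and 11.1 CPM after HS, 9.89 and 9.60 CPM in recovery and 0.718 and 1.00 CPM in control (3.44 ± 0.24, adjusted p = 4.5e-08).

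The other 2 of these 5 genes were between HS and control in recovery. One on scaffold 6 (22130524 to 22131281, 453 bp coding) lies between orthologues of AT4G12500 and AT4G12510 and had 22.4 and 25.7 CPM after HS, 6.81 and 6.08 CPM in recovery and 0.615 and 0.574 CPM in control (3.41 ± 0.27, adjusted p = 2.1e-07). The last, on scaffold 3 (1631300 to 1632049, 426 bp coding), is 792 bp from the orthologue of *PR4*, a pathogenesis-related gene. It had 14.4 and 23.9 CPM after HS, 3.17 and 3.61 CPM in recovery and 0.718 and 0.789 CPM in control (2.17 ± 0.40, adjusted p = 0.0014).

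Where the 6 libraries averaged 5 CPM or more, the 5 largest decreases in recovery ranged from -1.11 to -2.11 on the log2 scale. AL1G58630 (scaffold 1, 27794842 to 27804092, 15 exons) had 17.97 and 10.3 CPM after HS, 0.280 and 0.274 CPM in recovery and 1.23 and 1.22 CPM in control (recovery -2.11 ± 0.61, adjusted p = 0.030). It was higher after HS (3.42 ± 0.30, adjusted p = 1.1e-08), and its call in recovery was lost without any single control or recovery library (adjusted p = 0.087 to 0.22). AL8G34010 (scaffold 8, 18816862 to 18818032, 246 bp coding) had 12.98 and 10.2 CPM after HS, 0.933 and 0.823 CPM in recovery and 3.69 and 2.73 CPM in control (recovery -1.86 ± 0.31, adjusted p = 6.9e-04). Both genes thus lay above control after HS and below it 48 h later. So did a 10-exon gene on scaffold 7 (11975379 to 11979538, 1662 bp coding), 691 bp from the orthologue of *PGSIP8*. It had 303 and 312 CPM after HS, 48.5 and 49.1 CPM in recovery and 108 and 103 CPM in control (recovery -1.11 ± 0.08, adjusted p = 5.7e-08).

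In the last 2 of the 5, the controls differed widely between the libraries. A gene on scaffold 2 (17394451 to 17395218, 126 bp coding) had 20.6 and 15.6 CPM after HS, 3.45 and 2.70 CPM in recovery and 4.205 and 10.3 CPM in control (recovery -1.36 ± 0.31, adjusted p = 0.0072, but -0.50 with adjusted p = 0.43 without control replicate 2 and -1.14 with adjusted p = 0.15 without recovery replicate 2). A gene on scaffold 7 (19555106 to 19555878, 219 bp coding) had 14.6 and 16.3 CPM after HS, 21.1 and 21.8 CPM in recovery and 70.1 and 26.8 CPM in control (recovery -1.13 ± 0.26, adjusted p = 0.0085, but -0.31 with adjusted p = 0.16 without control replicate 1). That call was also lost without either recovery library (adjusted p = 0.063 and 0.096) and in DESeq2 (adjusted p = 0.33).

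Recovery replicate 2 stood far above the other 5 libraries at 3 genes, which were chosen after their values were seen. On scaffold 2 (9202293 to 9203217), a gene had 501 and 1105 CPM after HS, 437 and 3984 CPM in recovery and 523 and 365 CPM in control. On scaffold 9, a gene at 1645706 to 1653430 that overlaps 2 other genes had 575 and 981 CPM after HS, 316 and 2957 CPM in recovery and 372 and 307 CPM in control. Its neighbour at 1653527 to 1654201 had 206 and 414 CPM after HS, 150 and 1212 CPM in recovery and 218 and 158 CPM in control. All 3 were called higher in recovery (adjusted p = 0.014, 0.013 and 0.031), although recovery replicate 1 lay within or below the range of the controls. Without recovery replicate 2 the log2 fold changes were -0.02, -0.11 and -0.33 and none passed, and DESeq2 called none of them. On at least 1 side of each, the nearest gene with an orthologue is linked to a chloroplast gene of *A. thaliana*. On scaffold 2, a stretch from 8762007 to 9206902 holds 12 genes linked to chloroplast genes and 58 genes without an orthologue, 35 of them tRNA genes. The part of chloroplast transcripts in these counts was not tested.

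Genes without an orthologue were compared with the nearest gene that has one, where both lay within 1 kb of each other. This was so for 1161 of the 3047 tested genes, and in 957 of the pairs both genes were tested. Where the gene without an orthologue was higher after HS, its neighbour was higher in 177 of 375 pairs (47.2%) and lower in 30.9%. Where it was lower, the neighbour was lower in 134 of 314 pairs (42.7%) and higher in 33.8%. Where it was not called, the neighbour was higher in 42.5% and lower in 33.6% of 268 pairs. In 8941 tested genes with an orthologue and such a neighbour, the shares were 41.4 and 36.4% for higher genes and 40.9 and 35.7% for lower genes. Both members of a pair share libraries and may share reads at their ends, and these shares are given without a test.

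Genes without an orthologue that directly follow each other on a scaffold formed 617 pairs with both genes tested. Both were higher after HS in 103 pairs (16.7%) and both lower in 111 (17.99%), and the genes moved in opposite directions in 96 (15.6%). In the other 307 pairs, the genes were not both called. Of 9657 adjacent pairs of genes with an orthologue, both were higher in 16.4% and both lower in 16.5%, and 27.8% moved in opposite directions. In 3794 of these 9657 pairs, the genes were not both called. All shares are of all pairs, including those not both called, and the differences between them were not tested.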

How the data were processed

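The members and all lists were chosen with earlier results of these data known. Single-end reads of unstranded libraries were quality-trimmed with the FASTX toolkit, mapped to the *A. lyrata* genome assembly with TopHat and counted per gene with Qualimap by the authors, whose deposited raw read counts were used as they stand. How the authors treated reads that map to several genes is not given in the sources used here. The deposited RPKM columns were left out because they were not on 1 scale over the libraries. Genes were selected from the deposited annotation (genes linked to no *A. thaliana* gene and carrying no TE note) and joined by ID. Exon length is the union of exons.

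For the tests, edgeR 4.0.16 (run under R 4.3.3) was given the counts, with filterByExpr (minimum count 10, minimum total 15), TMM scaling, and 1 quasi-likelihood fit of the 6 libraries (3 residual degrees of freedom). The Benjamini-Hochberg method was applied over the 20779 genes tested, and an adjusted p under 0.05 was called. The standard error is the log2 fold change divided by the square root of F. CPM and RPKM were computed from the counts and TMM-scaled library sizes. The fit was tested on simulated data of 20486 genes for HS, with the shares recovered given in the text. Where a group had no read, a bound against 3 reads over the group is given, and with 1 to 3 control reads the ratio of reads with an exact 95% interval, which covers counting error only.

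Named genes were the 8 largest increases and 6 largest decreases after HS and the 5 largest of each in recovery (adjusted p under 0.05, groups not overlapping, mean of at least 5 CPM), the 5 highest in control RPKM, the 3 with no control read and most HS reads, and the 5 largest changes at listed TE copies. Other genes are marked as chosen after their values were seen. Alternatives were RLE scaling, library totals, DESeq2 1.42.0, other filters, single libraries left out, 4 libraries only, a replicate block, and genes that overlap no other gene. Sequences of the genes were not used here.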

Additional observations from a re-analysis of the deposited data

How the results depend on the processing

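After HS, the counts of genes without an orthologue that were higher (783 to 1150) or lower (757 to 1297) stayed within 1.5 times the reported 1072 under every alternative run, with 943 to 1107 higher and 898 to 1112 lower when 1 library was left out. Library totals moved the median log2 fold change of all genes to -0.25 and that of the genes without an orthologue to -0.25, with 897 higher and 1297 lower. Increases over 3 on the log2 scale numbered 182, 184 to 213 with 1 library left out, and 51 with at least 10 reads in every library, which removes genes with fewer reads in any condition. The share with such an increase was higher without an orthologue than with one under each of these settings.

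In recovery, DESeq2 called 92 higher and 41 lower. Leaving out 1 library gave 77 to 220 higher and 43 to 190 lower. The replicate block gave 219 and 179 in recovery and 1082 and 1068 after HS. Replicate numbers did not pair the libraries (correlation of replicate differences -0.00125 to 0.114). The cause was not tested in any of these. Of the named genes, 3 reversed in recovery without replicate 2 (-0.023, -0.11 and -0.33), and their values with 1 library left out ran from -0.023 to 3.17, from -0.11 to 3.13 and from -0.33 to 2.69.

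Shares of reads in HS, recovery and control were 9.03, 7.11 and 6.77% without the gene with the most reads, 9.42, 7.67 and 7.36% for genes that overlap no other gene, 9.95, 7.78 and 7.77% without the 3 loci high in recovery replicate 2, and 8.64% for HS without AL1G46520 (the last 2 chosen after seeing the data). With 1 library left out they ran from 10.0 to 10.2%, 7.95 to 8.54% and 7.82 to 7.93%. Median levels were 0.384, 0.380 and 0.414 RPKM per gene span instead of exons, and 0.547 RPKM in HS and 0.616 RPKM in recovery with library totals. With 1 library left out, 4828 to 5883 genes were detected, and 3977 had at least 10 reads in all libraries together. Depth limits all statements on genes that did not pass the filter on low counts.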
